A study of Mus musculus with 20 samples.

Results

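The neurotrophins and their receptors were described across the hippocampus of young and old mice in 2 kinds of housing. The set has 7 genes, Bdnf, Ntf3, Ntrk2, Ntrk3, Ngfr, Sort1 and Vgf, chosen by name from the gene table, with Ensembl identifiers matched to symbols of the GRCm38 annotation. They are 7 of 47729 genes in the table and 7 of the 16692 genes with enough counts to be tested. The question put to the data was whether an enriched environment (EE) raised Bdnf.

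Whole hippocampi of male C57BL/6 mice were sequenced in 20 libraries, 5 in each of 4 groups. The groups were 24-month-old mice in EE (24mEE), 24-month-old mice in standard cages (24mSC), 5-month-old mice in EE (5mEE) and 5-month-old mice in standard cages (5mSC). EE cages are larger and hold running wheels, climbing platforms and tubes, and the paper places the old mice in them only late in life. It does not describe the 5mEE mice, so how long those lived in EE is not given in the sources used here.

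Neurotrophins are secreted growth factors, made as longer precursors, that keep neurons alive and adjust the strength of synapses. Mature brain-derived neurotrophic factor (Bdnf) binds the receptor tyrosine kinase TrkB (Ntrk2) and neurotrophin-3 (Ntf3) binds TrkC (Ntrk3), while the uncleaved precursors bind p75 (Ngfr) together with sortilin (Sort1). In the hippocampus Bdnf is made by excitatory neurons in response to activity, and running wheels and EE are widely used to increase it. Vgf encodes a secreted neuropeptide precursor and is itself a neurotrophin-responsive gene.

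The libraries held 11 to 34.1 M counts (M, mega) on genes, and levels are CPM (counts divided by the library total in M counts) on the TMM scale, where that total is corrected for composition. Of the markers of dentate gyrus, CA1, CA2 and CA3 neurons none was at 0 across the libraries of any group. Library 5mSC replicate 3 stood apart: its choroid plexus markers averaged 3.63 on the log2 CPM scale, against 0.39 to 2.55 in the other 19 libraries, and its sample quality weight was 0.0777. Library 5mSC replicate 1 had a weight of 0.19, and the other 18 had weights of 0.687 to 1.88. For the 7 genes, comparisons of a pair of groups that use 5mSC are therefore given also without replicates 1 and 3, and other results only in part. In bulk tissue, fewer cells of a type and less RNA per cell cannot be told apart.

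Each comparison is a log2 fold change with its standard error (SE) from edgeR's quasi-likelihood test on all 20 libraries, with p values adjusted by Benjamini-Hochberg over all 16692 genes. The threshold was an adjusted p of 0.05. In 24mEE against 24mSC 0% of all genes passed, and 6.21% had an unadjusted p under 0.05. In 5mEE against 5mSC these shares were 0% and 16.5%, and for the mean effect of EE over both ages they were 0% and 12.8%. The age comparison in standard cages, 24mSC against 5mSC, had 0.803% of genes passing (134, with 30 to 1127 when 1 library was left out) and 20.5% with an unadjusted p under 0.05, 24mEE against 5mEE had 0.108% and 4.61%, and the interaction of age and EE had 0% and 8%.

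Of the 7 genes, 0 passed in any of these 6 comparisons. At an unadjusted p under 0.05 there were 2 in 24mEE against 24mSC (Bdnf and Ntrk3), 2 in 5mEE against 5mSC (Ntrk3 and Sort1), 2 for the mean effect of EE (Ntrk3 and Sort1) and 2 in 24mSC against 5mSC (Bdnf and Ntrk2). The other 2 comparisons had 0. Of the 7, the DESeq2 Wald test passed only Ntrk3, for the mean effect of EE. There 27 of all genes passed, among 3409 given an adjusted p. With sample quality weights, limma-voom passed only Bdnf of the 7, in 24mEE against 24mSC and in 24mSC against 5mSC. These 2 limma-voom comparisons passed 379 and 306 of all 16692 genes.

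Per kilobase of exon, Sort1 was the most abundant of the 7 at 104 CPM per kb (mean of 20 libraries). Vgf followed at 57 CPM per kb and Ntrk2 at 34.9. Ntrk3 and Bdnf lay close together, at 8.96 and 8.34 CPM per kb. Ntf3 was lower at 3.65 and Ngfr lowest at 0.545 CPM per kb. The lengths are the joined exons of all annotated transcripts, 30.2 kb for Ntrk3 and 19.3 kb for Ntrk2, so genes with many alternative ends are placed low on this scale.

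Bdnf lies on the plus strand of chromosome 2 (chr2:109674700-109727007, GRCm38) and has 11 annotated transcripts, which start at alternative promoters and share one coding exon. RefSeq promoter windows (GRCm38.p6, 250 bases before to 50 after a start) were matched for 4 of the 7 genes, and Bdnf has 7 of them. The start known as promoter IV, the one best known for its response to neuronal activity, is shown whole because its variant of the cAMP response element bears on an activity-dependent gene. The letters CACGTCA, searched on both strands, are in capitals and begin 37 bases before the start.
Bdnf promoter IV, chr2:109692186-109692485, plus strand: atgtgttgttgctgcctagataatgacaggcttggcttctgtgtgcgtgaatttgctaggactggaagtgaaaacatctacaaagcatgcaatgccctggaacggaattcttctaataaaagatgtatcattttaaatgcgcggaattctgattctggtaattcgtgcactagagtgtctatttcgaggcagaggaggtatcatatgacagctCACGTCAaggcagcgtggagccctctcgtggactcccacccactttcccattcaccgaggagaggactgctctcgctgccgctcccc
Among all 32851 windows of this length 2.01% held CACGTCA, and of the 11 windows of the 7 genes only this one did. The full element TGACGTCA was in 0 of the 11 windows, against 1.79% of all windows, and the E-box CACGTG was in 1, a Ntf3 window, against 7.15% of all.
For contrast, 60 bases around the first and the last RefSeq start of Bdnf (50 before and 10 from the start on) carry none of these motifs as spelled here. Other variants of the element were not searched, in these stretches or in the whole windows.
Bdnf first start, start site chr2:109674700: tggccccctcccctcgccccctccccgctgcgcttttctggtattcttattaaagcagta
Bdnf last start, start site chr2:109722921: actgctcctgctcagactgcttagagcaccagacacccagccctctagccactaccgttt
The counts sum reads over all Bdnf transcripts, so which promoter was used was not measured.

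Bdnf averaged 54.3 ± 4.75 CPM in 24mEE hippocampi and 43.5 ± 3.9 CPM in 24mSC hippocampi (SD, n = 5 each). In replicates 1 to 5 it was at 60.8, 56, 53.5, 53.7 and 47.6 CPM in 24mEE, against 42, 40.4, 42.7, 50.3 and 42.2 CPM in 24mSC. All 5 24mEE libraries were above the 24mSC mean, and the groups overlapped only through the lowest 24mEE library (replicate 5) and the highest 24mSC library (replicate 4). The fitted log2 fold change was 0.32 ± 0.141 (SE), which is 1.25-fold. This did not pass over all genes (edgeR, unadjusted p = 0.0335, adjusted p = 0.712).

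As a single value tested for the stated expectation, the difference in mean log2 CPM was 0.32 and was larger than relabelling of the 10 old libraries mostly gave (exact permutation test, 252 arrangements, one-sided p = 0.00794 and two-sided p = 0.0159, the smallest possible two-sided p being 0.00794). Bdnf and the other genes of the set were chosen with earlier results of these data known. The result over all genes changed with the fit. A fit of only the 2 groups gave log2 0.32 with an edgeR adjusted p of 0.0473, where 187 of all 16050 genes passed. Weighted by sample quality, limma-voom gave 0.31 with an adjusted p of 0.0411, where 379 of all 16692 genes passed. In the main fit 0 genes passed. Over all 27 settings edgeR, DESeq2 and limma adjusted p values ranged from 0.0411 to 1.

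In young mice Bdnf averaged 54.1 ± 5.79 CPM in 5mEE and 55.5 ± 14.6 CPM in 5mSC (SD, n = 5 each). The libraries were at 60.7, 51.4, 45.7, 55.4 and 57.4 CPM in 5mEE, against 68, 63.4, 30.7, 60 and 55.3 CPM in 5mSC. The whole 5mEE range lay inside that of 5mSC, whose replicate 3 was the lowest of all 20 libraries. The log2 fold change was -0.04 ± 0.14 (SE, edgeR adjusted p = 0.901). In the permutation test the difference in mean log2 CPM was 0.01 (exact, one-sided p = 0.488, two-sided p = 0.976), and without 5mSC replicates 1 and 3 it was -0.14 (exact, two-sided p = 0.25). Both ages together, permuted within age, gave 0.16 (exact, one-sided p = 0.0938, two-sided p = 0.188), but 0.06 without 5mSC replicate 3 (exact, two-sided p = 0.469) and 0.09 without 5mSC replicates 1 and 3 (exact, two-sided p = 0.31).

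Between ages, Bdnf in 24mSC was lower than in 5mSC by the means above, with a log2 fold change of -0.36 ± 0.141 (SE, edgeR unadjusted p = 0.0188, adjusted p = 0.165). All 5 24mSC libraries were below the 5mSC mean. The low 5mSC replicate 3 changed the call: without it the log2 fold change was -0.51 (edgeR adjusted p = 0.00401), and without replicates 1 and 3 it was -0.46 (edgeR adjusted p = 0.0139). Those 3 remaining 5mSC libraries averaged 59.6 ± 4.09 CPM (SD, n = 3). Of all genes, 599 of 16755 passed without replicate 3 and 363 of 16947 without replicates 1 and 3, against 134 of 16692 with all libraries. In EE the ages were alike in mean, 54.3 CPM in 24mEE and 54.1 CPM in 5mEE (log2 0.01 ± 0.14 SE, edgeR adjusted p = 1).

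The effect of EE on Bdnf was 0.36 ± 0.198 (SE) larger at 24 than at 5 months on the log2 scale, and this interaction did not pass (edgeR unadjusted p = 0.0808, adjusted p = 0.632). Without 5mSC replicates 1 and 3 the interaction was 0.46 (edgeR unadjusted p = 0.000838, adjusted p = 0.406). In that fit 1570 of all 16947 genes had an unadjusted p under 0.05 for the interaction, and 1 passed. Ordered by mean, 5mSC, 24mEE and 5mEE stood within 1 SD of each other and 24mSC stood below 5mEE by more than either SD. The 24mSC libraries enter both the EE comparison at 24 months and the age comparison, so these 2 share their low group.

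**Figure D1:**
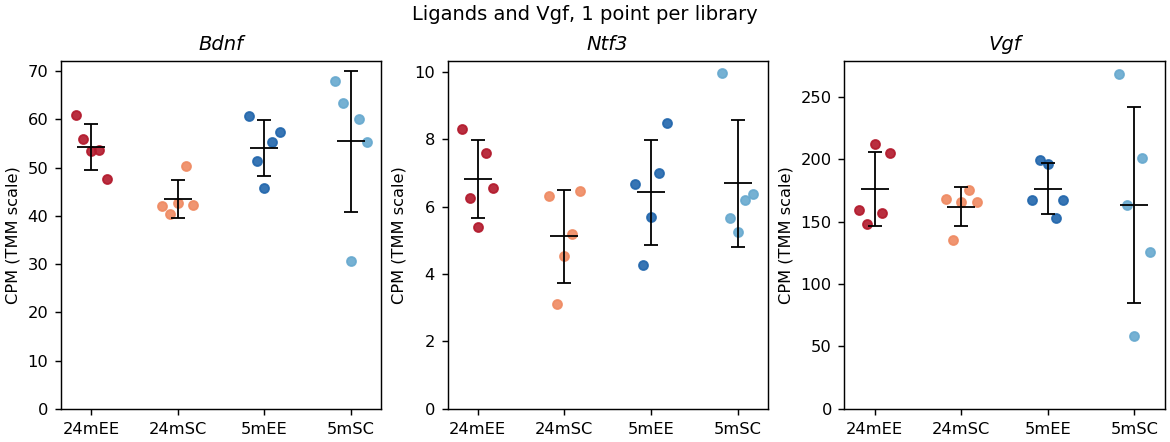
CPM on the TMM scale of Bdnf, Ntf3 and Vgf in each library of 24mEE, 24mSC, 5mEE and 5mSC (points, in replicate order), with the mean and SD as bars. For Bdnf 4 of the 24mSC libraries sit between 40.4 and 42.7 CPM, below every 24mEE library, and 5mSC replicate 3 is low for Bdnf (30.7 CPM) and Vgf (58.2 CPM).

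**Figure D2:**
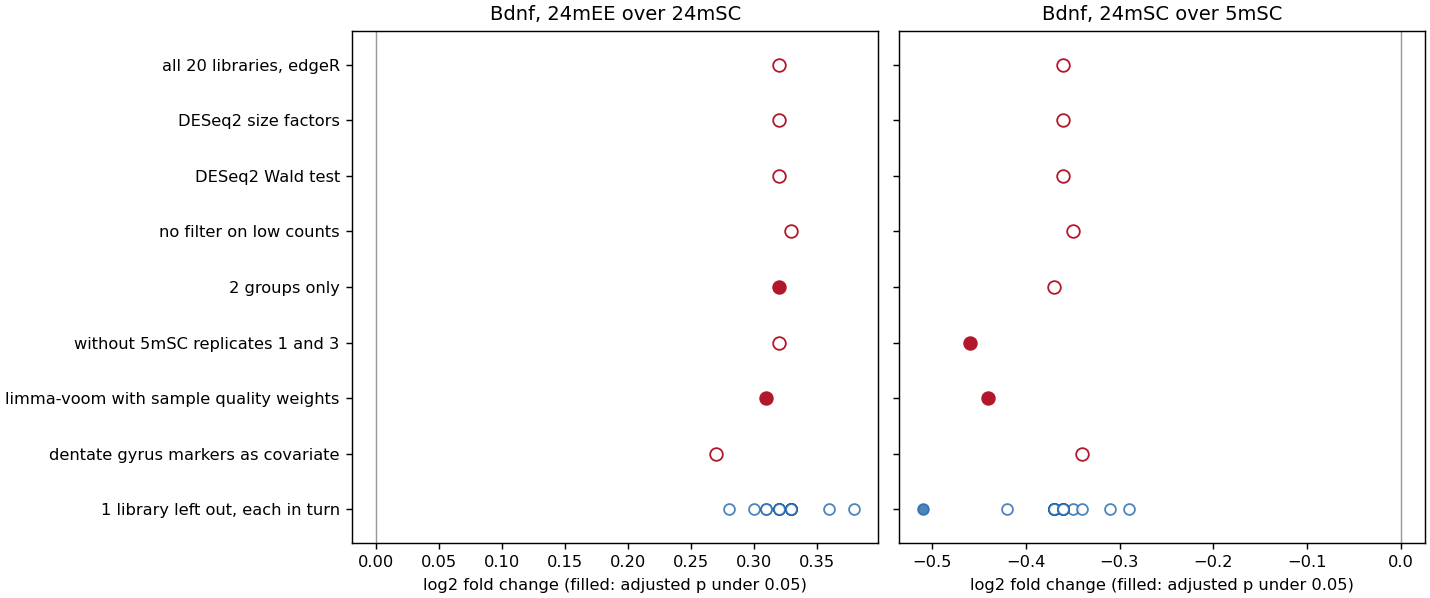
Bdnf log2 fold change under each way of fitting, for 24mEE over 24mSC (left) and 24mSC over 5mSC (right), with filled points where the adjusted p was under 0.05. The left values lie between 0.27 and 0.38 and the right ones between -0.51 and -0.29, so the fits differ mainly in whether they pass.

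Regional and activity markers are given beside these values, and their part in the Bdnf values was not tested beyond 1 covariate. All 10 dentate gyrus markers, a region rich in Bdnf, had positive log2 fold changes in 24mEE against 24mSC (median 0.28, with 0 passing), and their mean log2 CPM was 5.90 to 6.14 in 24mEE libraries and 5.03 to 6.02 in 24mSC libraries. None of the 10 was at 0 in any group, and their summed level was 801 to 970 CPM in 24mEE and 470 to 882 CPM in 24mSC. With the dentate score as a covariate the Bdnf log2 fold change at 24 months was 0.27 (edgeR unadjusted p = 0.105). Of 8 neocortex markers 7 had negative values (median -0.34), with means of 3.06 to 3.97 in 24mEE and 3.71 to 4.11 in 24mSC. In the same comparison 4 of 5 CA3 markers (median 0.35) and 5 of 6 CA2 markers (median 0.30) had positive values, 3 of 4 CA1 markers had negative ones (median -0.19), and 0 of these passed. In 5mEE against 5mSC, with 5mSC replicates 1 and 3 included, 8 of the 10 dentate markers were positive (median 0.27). There 6 of the 8 neocortex markers were negative (median -0.20), and 0 of either list passed.

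Of 12 immediate early genes, which neurons switch on within minutes of firing, 8 had positive log2 fold changes in 24mEE against 24mSC (median 0.17), and their score was 3.99 to 5.10 in 24mEE and 4.22 to 4.74 in 24mSC. At 5 months all 12 had negative values in 5mEE against 5mSC (median -0.68), with scores of 4.00 to 4.83 in 5mEE and 3.81 to 5.69 in 5mSC. All 12 were likewise negative in 24mSC against 5mSC (median -0.63), with 0 passing. Without 5mSC replicates 1 and 3 the remaining 5mSC scores were 4.62 to 5.69. The medians were then -0.65 in 5mEE against 5mSC and -0.57 in 24mSC against 5mSC. In the latter comparison 3 of the 12 genes (Arc, Egr3 and Fosb) passed, beside 363 of all 16947 genes tested. The lowest score of the 20 libraries was that of 5mSC replicate 3, which also had the lowest Bdnf.

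**Figure D3:**
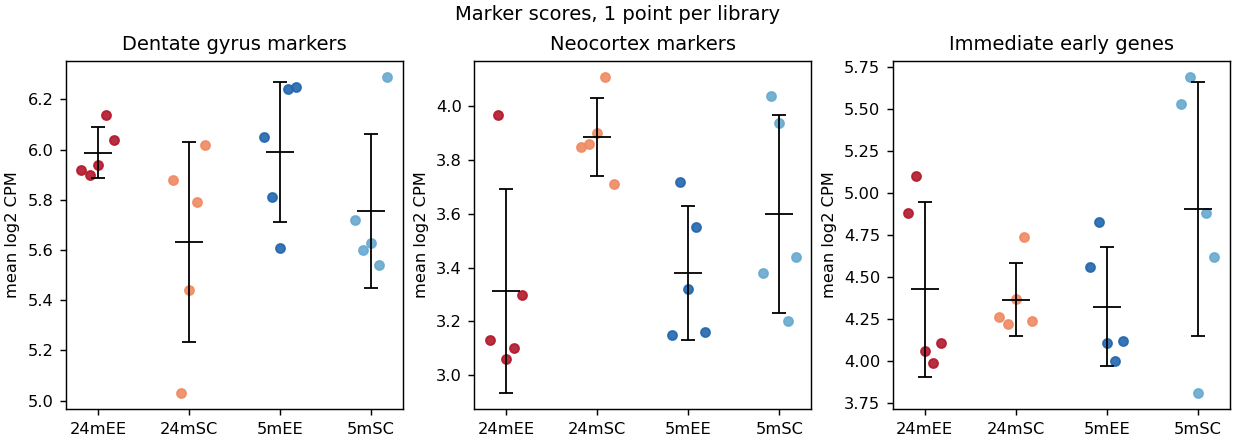
Mean log2 CPM of 10 dentate gyrus markers, 8 neocortex markers and 12 immediate early genes in each library (points), with the mean and SD of each group as bars. The vertical axes do not start at 0. The 24mEE dentate scores (5.90 to 6.14) overlap those of 24mSC (5.03 to 6.02) only at the top of the 24mSC range.

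Ntf3, the ligand of TrkC and in the hippocampus a product mainly of dentate granule cells, lies on the minus strand of chromosome 6 (chr6:126101412-126166910) and was a weakly expressed gene with 48 to 277 counts a library. It averaged 6.81 ± 1.15 CPM in 24mEE and 5.12 ± 1.39 CPM in 24mSC (SD, n = 5 each). The libraries were at 8.31, 6.24, 5.39, 7.58 and 6.55 CPM in 24mEE, against 6.32, 3.1, 4.52, 5.18 and 6.47 CPM in 24mSC. All 5 24mEE libraries were above the 24mSC mean, but the ranges overlapped. The log2 fold change was 0.41 ± 0.21 (SE, edgeR unadjusted p = 0.0625, adjusted p = 0.856), and with the dentate score as a covariate it was 0.18 (edgeR unadjusted p = 0.371).

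At 5 months Ntf3 was at 6.67, 4.27, 5.69, 6.99 and 8.47 CPM in 5mEE, against 9.97, 5.67, 5.26, 6.2 and 6.38 CPM in 5mSC. The groups overlapped almost entirely, apart from the high 5mSC replicate 1. The log2 fold change was -0.07 ± 0.207 (SE, edgeR adjusted p = 0.889), or 0.08 without 5mSC replicates 1 and 3 (edgeR adjusted p = 0.949).

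With age Ntf3 differed by -0.40 ± 0.211 in 24mSC against 5mSC on the log2 scale (SE, edgeR unadjusted p = 0.0708, adjusted p = 0.287) and by -0.26 without 5mSC replicates 1 and 3 (edgeR adjusted p = 0.512). In 24mEE against 5mEE it differed by 0.08 ± 0.206 (SE, edgeR adjusted p = 1). From the highest mean to the lowest the groups ran 24mEE, 5mSC, 5mEE and 24mSC, and no neighbours differed by more than their SDs. In both ligands 24mSC had the lowest mean of the 4 groups.

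Ntrk2 (TrkB), the receptor of Bdnf, lies on the plus strand of chromosome 13 (chr13:58806569-59133970) and was among the most abundant genes, at percentile 99.1 of those tested by CPM. Its 10 annotated transcripts include forms without the kinase, which astrocytes express, and the counts do not separate them. The libraries were at 708, 674, 771, 684 and 760 CPM in 24mEE, against 713, 689, 735, 715 and 742 CPM in 24mSC. The 24mSC values lay inside the 24mEE range, with means of 720 ± 44.1 CPM in 24mEE and 719 ± 21 CPM in 24mSC (SD, n = 5 each) and a log2 fold change of 0.00 ± 0.141 (SE, edgeR adjusted p = 0.999).

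In young mice Ntrk2 was at 647, 682, 737, 663 and 649 CPM in 5mEE, against 464, 677, 342, 721 and 684 CPM in 5mSC. Only 5mSC replicates 1 and 3 were low, and the other 3 fell inside the 5mEE range. The log2 fold change was 0.23 ± 0.141 (SE, edgeR adjusted p = 0.421) and turned to -0.04 without those replicates (edgeR adjusted p = 0.898). The age difference of 24mSC against 5mSC was 0.32 ± 0.141 (SE, edgeR unadjusted p = 0.037, adjusted p = 0.216), and without the same replicates it was 0.05 (edgeR adjusted p = 0.697). In 24mEE against 5mEE it was 0.09 ± 0.141 (SE, edgeR adjusted p = 1). By mean the groups ran 24mEE, 24mSC, 5mEE and 5mSC, where 24mSC exceeded 5mEE by more than either SD, a pair that was not tested, and the other neighbours did not differ beyond their SDs.

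Ntrk3 (TrkC), the receptor of Ntf3, lies on the minus strand of chromosome 7 (chr7:78175959-78738012), and it had the lowest p of the 7 genes for the mean effect of EE. At 24 months it was at 280, 265, 325, 282 and 345 CPM in 24mEE, against 265, 213, 214, 256 and 273 CPM in 24mSC. All 5 24mEE libraries were above the 24mSC mean of 244 ± 28.9 CPM, with their own mean at 299 ± 33.8 CPM (SD, n = 5 each), and the ranges overlapped between 265 and 273 CPM. The log2 fold change was 0.29 ± 0.108 (SE), 1.23-fold (edgeR unadjusted p = 0.0128, adjusted p = 0.56).

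At 5 months Ntrk3 was at 272, 289, 312, 318 and 297 CPM in 5mEE, against 180, 251, 234, 271 and 266 CPM in 5mSC. These groups did not overlap, by the narrow gap between the lowest 5mEE and the highest 5mSC library, a pattern that 1.62% of all genes tested had in this comparison. The means were 297 ± 18.4 CPM in 5mEE and 240 ± 36.8 CPM in 5mSC (SD, n = 5 each), with a log2 fold change of 0.31 ± 0.108 (SE), 1.24-fold (edgeR unadjusted p = 0.0099, adjusted p = 0.225). Without 5mSC replicates 1 and 3 it was 0.18 (edgeR unadjusted p = 0.0757, adjusted p = 0.754).

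The mean effect of EE on Ntrk3 over both ages was 0.30 ± 0.0764 on the log2 scale (SE), 1.23-fold (edgeR unadjusted p = 0.000779, adjusted p = 0.341). The DESeq2 Wald test gave the same 0.30 with an adjusted p of 0.023. Its filter left an adjusted p to only 3409 of the 16692 genes, of which 27 passed. Over all 26 settings the value stayed between 0.24 and 0.32 with adjusted p from 0.023 to 0.905 (edgeR, DESeq2 or limma). The highest of these came with the dentate score as a covariate, where it was 0.24 (edgeR unadjusted p = 0.0108). The effect differed between ages by -0.01 ± 0.153 (SE, edgeR adjusted p = 0.986).

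Ntrk3 did not differ with age beyond its spread, by 0.02 ± 0.108 in 24mSC against 5mSC (SE, edgeR adjusted p = 0.931; -0.11 without 5mSC replicates 1 and 3) and by 0.01 ± 0.108 in 24mEE against 5mEE (SE, edgeR adjusted p = 1). Its means ran 24mEE, 5mEE, 24mSC and 5mSC. With all 20 libraries the EE groups and the standard cage groups formed a pair each, and 5mEE stood above 24mSC by more than either SD. Without replicates 1 and 3 the 5mSC mean was 263 ± 10.6 CPM (SD, n = 3), between those of 24mSC and 5mEE.

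**Figure D4:**
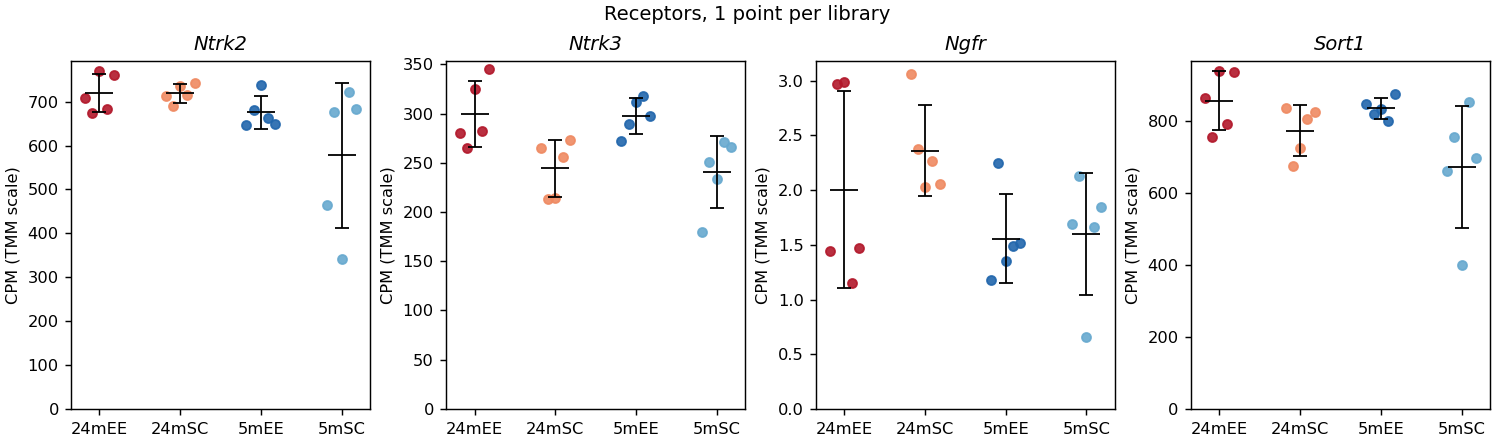
CPM on the TMM scale of Ntrk2, Ntrk3, Ngfr and Sort1 in each library of 24mEE, 24mSC, 5mEE and 5mSC (points, in replicate order), with the mean and SD as bars. The Ntrk3 means are 299 and 297 CPM in the EE groups, against 244 and 240 CPM in standard cages, and the low 5mSC points of Ntrk2 (342 and 464 CPM) are replicates 3 and 1.

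Ngfr (p75), the low-affinity receptor that in the adult forebrain is carried chiefly by cholinergic neurons and their fibres, lies on the minus strand of chromosome 11 (chr11:95568818-95587735). With 6 to 69 counts a library it was the sparsest of the 7. It was at 1.44, 2.97, 2.99, 1.15 and 1.47 CPM in 24mEE, against 3.06, 2.38, 2.03, 2.27 and 2.06 CPM in 24mSC. The 24mEE libraries split, with 2 near 3 CPM and 3 under 1.5 CPM, on both sides of most 24mSC values, and the log2 fold change was -0.24 ± 0.282 (SE, edgeR adjusted p = 0.999). In young mice it was at 1.18, 2.25, 1.35, 1.49 and 1.52 CPM in 5mEE, against 1.69, 2.13, 0.657, 1.66 and 1.85 CPM in 5mSC. These groups overlapped (log2 -0.08 ± 0.287 SE, edgeR adjusted p = 0.911; -0.27 without 5mSC replicates 1 and 3, edgeR adjusted p = 0.846).

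Ngfr had means of 2.36 ± 0.416 CPM in 24mSC hippocampi, against 1.6 ± 0.558 CPM in 5mSC hippocampi (n = 5 each, SD). The fitted difference on the log2 scale was 0.52 ± 0.286 (SE, edgeR unadjusted p = 0.0828, adjusted p = 0.309), or 0.34 without 5mSC replicates 1 and 3 (edgeR adjusted p = 0.52). In 24mEE against 5mEE it was 0.37 ± 0.284 (SE, edgeR adjusted p = 1). No neighbouring group means of Ngfr differed by more than their SDs. Of 4 cholinergic markers 3 (Chat, Slc18a3 and Lhx8) had too few counts to be tested, with at most 8 counts in a library. The one tested, Slc5a7, a choline transporter, had log2 fold changes of -0.49 in 24mSC against 5mSC and -0.48 in 24mEE against 5mEE. Neither passed. It was itself sparse, at -0.82 to 0.64 log2 CPM, with the highest value in 5mSC replicate 3. Its relation to Ngfr was not tested.

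Sort1 (sortilin), the co-receptor of the precursors that also sorts Bdnf into the regulated secretory route, lies on the plus strand of chromosome 3 (chr3:108284082-108361511). It was at 864, 757, 939, 792 and 937 CPM in 24mEE, against 836, 675, 725, 807 and 826 CPM in 24mSC. In 24mEE 3 libraries (replicates 1, 3 and 5) were above the 24mSC range and 4 of 5 were above its mean (log2 0.15 ± 0.137 SE, edgeR adjusted p = 0.999). In young mice it was at 849, 821, 835, 801 and 877 CPM in 5mEE, against 661, 756, 400, 854 and 698 CPM in 5mSC. Only 5mSC replicate 4 reached the 5mEE range. The log2 fold change was 0.31 ± 0.137 (SE, edgeR unadjusted p = 0.0335, adjusted p = 0.271), and without 5mSC replicates 1 and 3 it was 0.12 (edgeR adjusted p = 0.793).

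The mean effect of EE on Sort1 was 0.23 ± 0.0968 on the log2 scale (SE, edgeR unadjusted p = 0.0273, adjusted p = 0.36), or 0.13 without these replicates (edgeR adjusted p = 0.398). With age it differed by 0.20 ± 0.137 in 24mSC against 5mSC (SE, edgeR adjusted p = 0.424; 0.01 without 5mSC replicates 1 and 3) and by 0.04 ± 0.137 in 24mEE against 5mEE (SE, edgeR adjusted p = 1). The means ran 858 ± 82.8 CPM in 24mEE, 836 ± 28.7 CPM in 5mEE, 774 ± 70.6 CPM in 24mSC and, at the low end, 674 ± 170 CPM in 5mSC (n = 5 a group, SD). No neighbours in that order differed by more than the larger SD. Across the 20 libraries Sort1 followed Ntrk3 with Spearman's rho 0.75 (0.67 over 18 libraries), the highest of the 21 pairs among the 7 genes over 20 libraries, while Bdnf and Ntf3 had 0.57 (0.45 over 18).

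Vgf, which is cleaved into several neuropeptides, lies on the plus strand of chromosome 5 (chr5:137026392-137033351). It was at 159, 148, 212, 157 and 205 CPM in 24mEE, against 168, 135, 166, 175 and 166 CPM in 24mSC. Most 24mEE libraries lay below the 24mSC mean, but replicates 3 and 5 were above its range (log2 0.12 ± 0.238 SE, edgeR adjusted p = 0.999). The same 2 24mEE libraries were also the highest of their group for Sort1, Ntrk2 and Ntrk3. In young mice Vgf was at 167, 199, 196, 153 and 167 CPM in 5mEE, against 268, 163, 58.2, 201 and 126 CPM in 5mSC, which spanned the 5mEE range on both sides (log2 0.11 ± 0.238 SE, edgeR adjusted p = 0.845; 0.11 without 5mSC replicates 1 and 3, edgeR adjusted p = 0.88).

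Vgf was the most variable of the 7 in 5mSC, with a coefficient of variation of 48.3%, against 9.51% to 16.8% in the other groups. Its means were 176 CPM in 24mEE, 176 CPM in 5mEE, 163 CPM in 5mSC and 162 CPM in 24mSC and did not differ beyond their SDs. With age in standard cages its log2 fold change was -0.01 ± 0.238 (SE, edgeR adjusted p = 0.983), and -0.01 without 5mSC replicates 1 and 3 (edgeR adjusted p = 0.967).

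**Figure D5:**
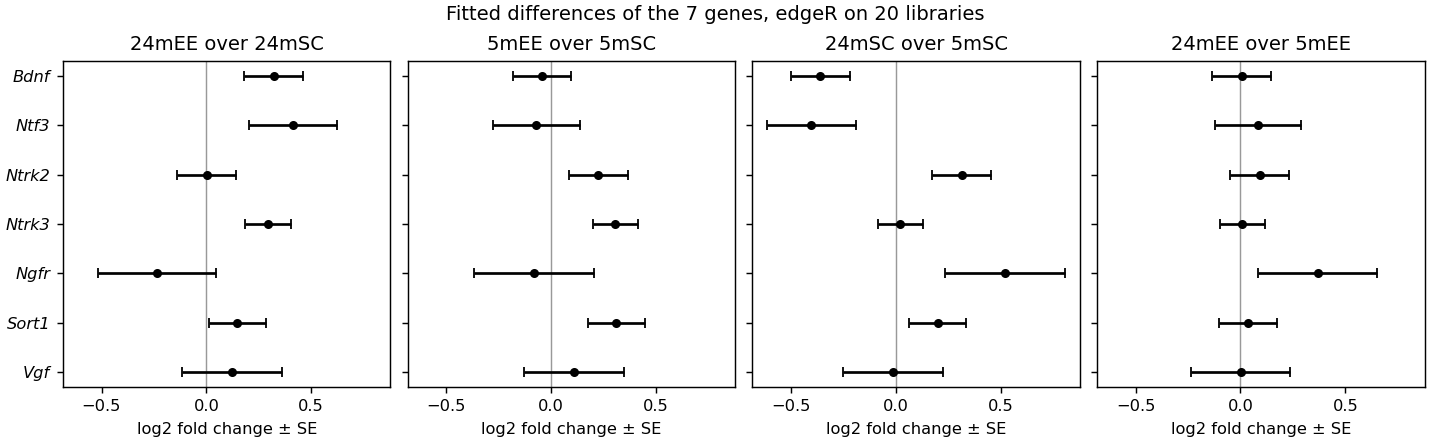
Log2 fold changes (points) with SE (bars) of the 7 genes in 24mEE over 24mSC, 5mEE over 5mSC, 24mSC over 5mSC and 24mEE over 5mEE, from edgeR on 20 libraries. Bdnf and Ntf3 lie at 0.32 and 0.41 in the first panel and at -0.36 and -0.40 in the third, Ntrk3 lies near 0.3 in both EE panels, and none of the 7 passed in any panel.

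The wider pathway was described by 5 lists with 71 genes, of which 68 were tested and 0 passed in any comparison in edgeR over all 20 libraries. Some passed in other fits of 24mSC against 5mSC. Without 5mSC replicate 2 these were 5 genes, Mef2c at log2 1.02 (edgeR adjusted p = 0.00445), Sorcs1 at 0.77 (0.011), Pik3r1 at 0.44 (0.0138), Ppargc1a at 0.41 (0.0212) and Usf1 at -0.28 (0.0376). Srf passed without 5mSC replicate 3 at -0.33 (edgeR adjusted p = 0.00364), without replicates 1 and 3 and with limma-voom weights, and the DESeq2 Wald test passed Srf, Sorcs1 and Mef2c. Beside the 5 of 68 without replicate 2, 1127 of all 16889 genes passed. The counts over all genes were 599 of 16755 without replicate 3 and 363 of 16947 without replicates 1 and 3. Of 16692 genes, 306 passed with limma-voom weights and 759 in the DESeq2 Wald test. Ppargc1a and Usf1 were chosen for naming after their values were seen. In 24mEE against 24mSC 4 of the 68 (5.88%) had an unadjusted p under 0.05, 1 positive and 3 negative, beside 6.21% of all genes. Their median log2 fold change was 0.02, against -0.00 over all genes. For 24mSC against 5mSC the count was 14 of 68 (20.6%), beside 20.5% of all genes, and in 5mEE against 5mSC 12 of 68 (17.6%), beside 16.5%. The mean effect of EE had 6 (8.82%), beside 12.8% of all genes, 24mEE against 5mEE had 2 (2.94%), beside 4.61%, and the interaction had 7 (10.3%), beside 8%. Without 5mSC replicates 1 and 3 the count was 12 of 68 in 24mEE against 24mSC, beside 2332 of 16947 genes, 7 in 5mEE against 5mSC, beside 1138, and 7 in 24mEE against 5mEE, beside 1950.

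Among 8 tested ligands and receptors outside the 7 genes, Sorl1 and Sorcs3, which like Sort1 are sorting receptors with a Vps10 domain, had the lowest p in 24mEE against 24mSC. Sorl1 averaged 460 CPM in 24mEE and 382 CPM in 24mSC (log2 0.27 ± 0.154 SE, edgeR adjusted p = 0.925), and Sorcs3 59.6 CPM in 24mEE and 49.7 CPM in 24mSC (log2 0.26 ± 0.166 SE, edgeR adjusted p = 0.98). Sorcs1, of the same family, averaged 19.2 CPM in 24mSC and 12.9 CPM in 5mSC (log2 0.57 ± 0.179 SE, edgeR adjusted p = 0.0968), and without 5mSC replicates 1 and 3 its log2 fold change was 0.37 (edgeR adjusted p = 0.257). The ligand Ntf5 had 1 to 14 counts a library and was not tested.

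Of 15 tested genes for processing and secretion 7 had positive and 8 negative log2 fold changes in 24mEE against 24mSC. The granin Scg2, a cargo of dense-core vesicles, averaged 250 CPM in 24mEE and 205 CPM in 24mSC (log2 0.28 ± 0.129 SE, edgeR unadjusted p = 0.0393, adjusted p = 0.749). Pcsk7, a convertase of precursor proteins, averaged 27.7 CPM in 24mEE and 25 CPM in 24mSC (log2 0.15 ± 0.0715 SE, edgeR adjusted p = 0.818). Plat, the tissue plasminogen activator that starts the cleavage of pro-Bdnf outside the cell, averaged 35.1 CPM in 24mSC and 44.7 CPM in 5mSC (log2 -0.35 ± 0.125 SE, edgeR adjusted p = 0.131). Pcsk2 averaged 295 CPM in 24mSC and 252 CPM in 5mSC (log2 0.22 ± 0.123 SE, edgeR adjusted p = 0.308).

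Downstream of the Trk receptors 22 genes were tested, of which 14 had positive and 8 negative log2 fold changes in 24mEE against 24mSC (median 0.02). The adaptor Sh2b2 averaged 4.08 CPM in 24mEE and 5.44 CPM in 24mSC (log2 -0.42 ± 0.148 SE, edgeR unadjusted p = 0.0105, adjusted p = 0.546). The docking protein Frs3 averaged 15.9 CPM in 24mEE and 18.4 CPM in 24mSC (log2 -0.21 ± 0.0874 SE, edgeR unadjusted p = 0.0254, adjusted p = 0.671). With age the regulatory kinase subunit Pik3r1 averaged 143 CPM in 24mSC and 113 CPM in 5mSC (log2 0.33 ± 0.107 SE, edgeR adjusted p = 0.102; 0.18 without 5mSC replicates 1 and 3), and the adaptor Sh2b1 74.4 CPM in 24mSC and 81.4 CPM in 5mSC (log2 -0.13 ± 0.0562 SE, edgeR adjusted p = 0.197).

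Of 9 genes that act with p75, 0 had an unadjusted p under 0.05 in either of these comparisons. The p75 homologue Nradd had the lowest p in both, with log2 fold changes of 0.31 ± 0.25 in 24mEE against 24mSC (SE, edgeR adjusted p = 0.999) and -0.51 ± 0.252 in 24mSC against 5mSC (SE, edgeR adjusted p = 0.26; -0.16 without 5mSC replicates 1 and 3). Next came the kinase Irak1 at 0.07 ± 0.0666 in 24mEE against 24mSC (SE, edgeR adjusted p = 0.999) and Bex1 at 0.10 ± 0.0934 in 24mSC against 5mSC (SE, edgeR adjusted p = 0.577).

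Among 14 regulators of Bdnf transcription, 6 had an unadjusted p under 0.05 in 24mSC against 5mSC (42.9%, beside 20.5% of all genes). Of these, 2 were positive and 4 negative. The count uses all 20 libraries and was not repeated without 5mSC replicates 1 and 3. The largest of the 4, named after its values were seen, was Rest, a repressor of neuronal genes, at log2 -1.46 ± 0.528 (SE, edgeR unadjusted p = 0.0116, adjusted p = 0.137). It averaged 6.97 CPM in 24mSC and 20.4 CPM in 5mSC, where replicate 3 alone was at 74.1 CPM, and without that library the 5mSC mean was 6.98 CPM and the log2 fold change -0.01 (edgeR adjusted p = 0.978). Srf, an activity-responsive transcription factor, averaged 64.6 CPM in 24mSC and 77.1 CPM in 5mSC (log2 -0.26 ± 0.0744 SE, edgeR adjusted p = 0.0772), and without 5mSC replicates 1 and 3 its log2 fold change was -0.31 (edgeR adjusted p = 0.00887). Mef2c, a transcription factor of excitatory neurons and cortex, averaged 193 CPM in 24mSC and 118 CPM in 5mSC (log2 0.71 ± 0.219 SE, edgeR adjusted p = 0.0921; 0.47 without 5mSC replicates 1 and 3). In the EE comparison Mef2c averaged 138 CPM in 24mEE and 193 CPM in 24mSC (log2 -0.48 ± 0.218 SE, edgeR unadjusted p = 0.038, adjusted p = 0.74), beside the neocortex markers given above. The deacetylase Hdac2 averaged 89.6 CPM in 24mEE and 83.7 CPM in 24mSC (log2 0.10 ± 0.0639 SE, edgeR adjusted p = 0.993).

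The genes whose log2 CPM followed each of the 7 most closely over the 20 libraries were taken from 13066 genes with a mean log2 CPM of at least 1, as a description in which library composition is shared by all points. Ppp2ca, a catalytic subunit of protein phosphatase 2A, followed Bdnf with Spearman's rho 0.943 (0.922 over 18 libraries, again the closest), ahead of Taf5 at 0.887 and Rnf185 at 0.86. For Ntf3 the closest were Rab40b at 0.869, Jph1 at 0.844 and Limd2 at 0.836. For the receptors they were Cabin1, Nrxn2 and Bcl9 with Ntrk2 (0.898, 0.895 and 0.893), Sphkap, Ptprj and Kcnj6 with Ntrk3 (0.935, 0.928 and 0.928), and Jup, Unc5b and Lamp5 with Ngfr (0.818, 0.806 and 0.803). Sort1 was followed by Fry at 0.94, Jak1 at 0.935 and Chd4 at 0.932, and Vgf by Eno2 at 0.905, Gars at 0.875 and Clstn3 at 0.862. Without 5mSC replicates 1 and 3 some of these fell back. Jup, Unc5b and Lamp5 were then at places 9, 25 and 31 for Ngfr, Limd2 at 22 for Ntf3 and Gars at 17 for Vgf. Rab40b stayed first for Ntf3, and the rest named after Ppp2ca lay between places 2 and 11.

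Reads were not assigned by strand, so overlapping genes on either strand cannot be told apart. Of the exon bases of Bdnf 14.4% overlap the antisense gene Gm45346, and of those of Sort1 4.47% overlap the antisense gene Gm12523. Of the 50-base words in Bdnf and Sort1 transcripts 12.7% and 3.81% are found in these partners. In Ngfr, Ntrk3 and Ntrk2 0.854%, 0.529% and 0.291% of words are found in other genes, and in Ntf3 and Vgf 0%.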

How the data were processed

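Total RNA of single hippocampi was sequenced as unstranded TruSeq libraries. The deposited counts are whole reads per Ensembl gene, made per the labels on GRCm38 by featureCounts 1.4.6-p4 after STAR 2.4.1d (reads from bcl2fastq 1.8.2); a deposited RPKM table was not used. Of 47729 identifiers 98.9% had a symbol. In R 4.3.3, edgeR 4.0.16 kept 16692 genes by filterByExpr (least count 10, least total 15), scaled libraries by TMM and fitted the 4 groups to all 20 libraries (quasi-likelihood, Benjamini-Hochberg adjustment over all genes, threshold 0.05). Log2 CPM used a prior count of 0.5. The sequencing run, a term in the study's own model, is not in the labels and was not fitted. Replicate numbers follow the order of deposition. The Bdnf expectation was tested by exact permutation over libraries. Alternatives were DESeq2 1.42.0, limma 3.58.1 with voom sample quality weights, no filter, 2 groups only, a dentate marker covariate, and leaving out libraries. A floor of 3 counts is 0.0882 to 0.329 CPM and covers counting error only. The script was tested on simulated data. Named pathway genes are, per list, the 2 with the smallest p in 24mEE against 24mSC and in 24mSC against 5mSC. Members and lists were chosen with earlier results of these data known. Some genes that this rule names are not reported here.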

Additional observations from a re-analysis of the deposited data

Results flagged for a closer look

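Among 28 pairs of gene and group, 3 held a library whose gap to its nearest neighbour took more than 0.71 of the group's range, the critical value of Dixon's test at 95% for 5 samples; chance flags about 1 group in 20. Bdnf in 24mSC replicate 4 was at 50.3 CPM, against 40.4 to 42.7 CPM in the other 24mSC libraries. It is the library through which 24mSC overlaps 24mEE. Ntf3 in 5mSC replicate 1 was at 9.97 CPM, against 5.26 to 6.38 CPM in the other 5mSC libraries. Vgf in 24mSC replicate 2 was at 135 CPM, against 166 to 175 CPM in the 4 others of 24mSC. That library also had the lowest dentate score of all (5.03). No cause was tested.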

How the results depend on the processing

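No paired analysis was possible because the labels give the groups no shared replicate numbers. The biological coefficient of variation was 17.4%, and depth limits Ngfr most, at 6 to 69 counts a library.

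The count of the 7 genes that passed was 0 in each comparison and moved to 1 in these fits. In 24mEE against 24mSC it was 1 (Bdnf) with only those 2 groups and with limma-voom weights. For the mean effect of EE it was 1 (Ntrk3) in DESeq2. For 24mSC against 5mSC it was 1 (Bdnf) without 5mSC replicates 1 and 3 and with limma-voom weights, and leaving out 1 library at a time gave 0 to 1. The number of all genes that passed in 24mEE against 24mSC was 0, but 187 with 2 groups only, 379 with limma-voom weights, 31 in DESeq2 and 10 without 5mSC replicates 1 and 3. With age in standard cages it was 134, but 3, 306, 759 and 363 in the same fits, 59 with no filter and 72 with the dentate covariate, and leaving out 1 library moved it between 30 (without 24mSC replicate 3) and 1127 (without 5mSC replicate 2). In 24mEE against 5mEE it was 18, but 52, 162, 39 and 97, and 9 with no filter. In 5mEE against 5mSC and for the mean effect of EE it was 0, but 31 and 27 in DESeq2, and for the interaction 0, but 6.

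Some values changed sign, among them Ntrk2 in 5mEE against 5mSC from the larger value given above. The values after the change were all small. Without 5mSC replicates 1 and 3 they were Ntf3 at 0.08 and Ntrk2 at -0.04 in 5mEE against 5mSC, Ntrk2 at -0.02 for the mean effect, Ntrk3 at -0.11 in 24mSC against 5mSC, and for the interaction Ntrk2 at 0.05, Ntrk3 at 0.12, Ngfr at 0.04 and Sort1 at 0.03. With limma-voom weights they were Ntrk2 at -0.0012 in 24mEE against 24mSC, Ntrk3 at -0.07 in 24mSC against 5mSC and -0.01 in 24mEE against 5mEE, Ntrk3 at 0.06 and Sort1 at 0.01 for the interaction, and Vgf at -0.01 in 24mEE against 5mEE. With the dentate covariate they were Ntf3 at -0.05 for the mean effect and Ntrk2 at -0.02 in 24mEE against 24mSC, and with no filter Vgf at -0.0014 in 24mEE against 5mEE. The causes were not tested.

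Leaving out 1 library at a time gave these ranges where the sign changed. In 24mEE against 24mSC Ntrk2 ran from -0.03 to 0.03. In 5mEE against 5mSC Bdnf ran from -0.19 to 0.03, Ntf3 from -0.20 to 0.12, Ngfr from -0.25 to 0.02 and Vgf from -0.11 to 0.35. In 24mSC against 5mSC Ntrk3 ran from -0.07 to 0.07 and Vgf from -0.23 to 0.23. In 24mEE against 5mEE Bdnf ran from -0.05 to 0.05, Ntf3 from -0.03 to 0.21, Ntrk3 from -0.05 to 0.05 and Vgf from -0.07 to 0.06. For the interaction Ntrk3 ran from -0.06 to 0.09, Ngfr from -0.34 to 0.02 and Vgf from -0.22 to 0.24. Bdnf in 24mEE against 24mSC kept its sign, from 0.28 to 0.38. Its exact permutation p (two-sided) at 24 months ran from 0.0159 to 0.0238, and at 5 months from 0.111 to 1 with the difference turning negative, as it did without 5mSC replicates 1 and 3 (exact permutation p = 0.25). Of 280 values of the 7 genes outside these single omissions, 258 kept their direction and their side of the threshold, 17 changed sign and 5 newly passed.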
